A study of Mus musculus with 8 samples.

Results

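The integrin and laminin chains of mouse pancreatic tumours were followed as 35 genes, 25 coding for integrin chains and 10 for laminin chains, found by name in a table of 54532 genes. All 35 had enough reads to be tested, as did 18238 genes in all. The tumours had grown in the pancreas of C57BL/6 mice from implanted KPC cells, a line of mouse pancreatic ductal adenocarcinoma. For 2 weeks the mice were given TLQP21, a fragment of the secreted neuronal protein VGF (4 libraries), or Saline (4 libraries). The series asks which transcripts accompany the slower tumour growth that the submitters describe under the peptide. Both groups carried the same implanted line, and the labels do not say whether each library came from its own animal.

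Integrins are receptors built from an alpha and a beta chain, and they tie the cell's actin or keratin skeleton to the matrix outside or to other cells. Laminins are trimers of an alpha, a beta and a gamma chain, and they form the base of the basement membrane, the sheet that normally separates pancreatic ducts from the stroma. In pancreatic cancer that sheet is breached, and the tumour cells remain in contact with laminin and collagen through integrins such as alpha-6-beta-4. A further set of integrins, built on the beta-2 and beta-7 chains, is made by white blood cells and serves their arrest on vessel walls and entry into tissue.

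Summed counts ran from 29027480 to 33536087 reads in TLQP21 and from 28358465 to 28963457 reads in Saline, so that every TLQP21 library was the deeper. The libraries mixed tumour cells with other cells: the epithelial gene Epcam lay at 672 to 749 CPM in TLQP21 and 536 to 810 CPM in Saline, and the leukocyte gene Ptprc at 108 to 151 CPM in TLQP21 and 145 to 176 CPM in Saline. CPM are counts scaled to a common library size, after TMM normalisation. Libraries 1 and 2 of each group held 9960 to 10625 reads of Xist, which coats the silenced X chromosome. Libraries 3 and 4 held 0 to 14 reads of Xist and 2027 to 2247 reads of 4 Y-linked genes. The labels do not mention this split, which runs across both treatments. Saline 2 also held liver transcripts, with albumin (Alb) at 2543 CPM against 0.0681 to 0.401 CPM in the other libraries. Saline 4 had the highest level of acinar genes, those of the digestive enzymes, at 12.1 log2 CPM, against 9.41 to 11.2 log2 CPM in TLQP21 and 9.74 to 10.8 log2 CPM in the other Saline libraries.

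Among receptor and ligand chains compared per kilobase of exon, Itgb1, the common partner of most matrix-binding alpha chains, was the highest, at 195 ± 22.5 CPM per kb over the 8 libraries (SD). The laminin alpha chain Lama5 followed at 97.1 ± 9.11 CPM per kb, then Itgb5, a chain of a vitronectin receptor, at 80.1 ± 3.77, and Itga3, a laminin receptor chain, at 67.6 ± 8.48. Itgb1 stood above Lama5 in 8 of 8 libraries without overlap of their ranges. Lama5, Itgb5, Itga3 and Lamc1 kept that order in each of the 8 libraries. The next chains could not be ranked: Lamc1 (48.6 ± 5.24 CPM per kb), the collagen receptor chain Itga2 (47.9 ± 5.56) and the laminin receptor chain Itga6 (47.8 ± 6.35) exceeded the chain next below them in 4, 4 and 5 of 8 libraries. At the low end stood Lama2 (0.590 ± 0.178 CPM per kb), Lamc3 (0.551 ± 0.249), Itgb8 (0.409 ± 0.105) and Itga8 (0.244 ± 0.0884). Itga8, a chain found on smooth muscle and mesangial cells, had 27 to 85 reads per library, and Lamc3 21 to 169. Bulk levels do not tell few cells with much RNA from many cells with little.

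**Figure D1:**
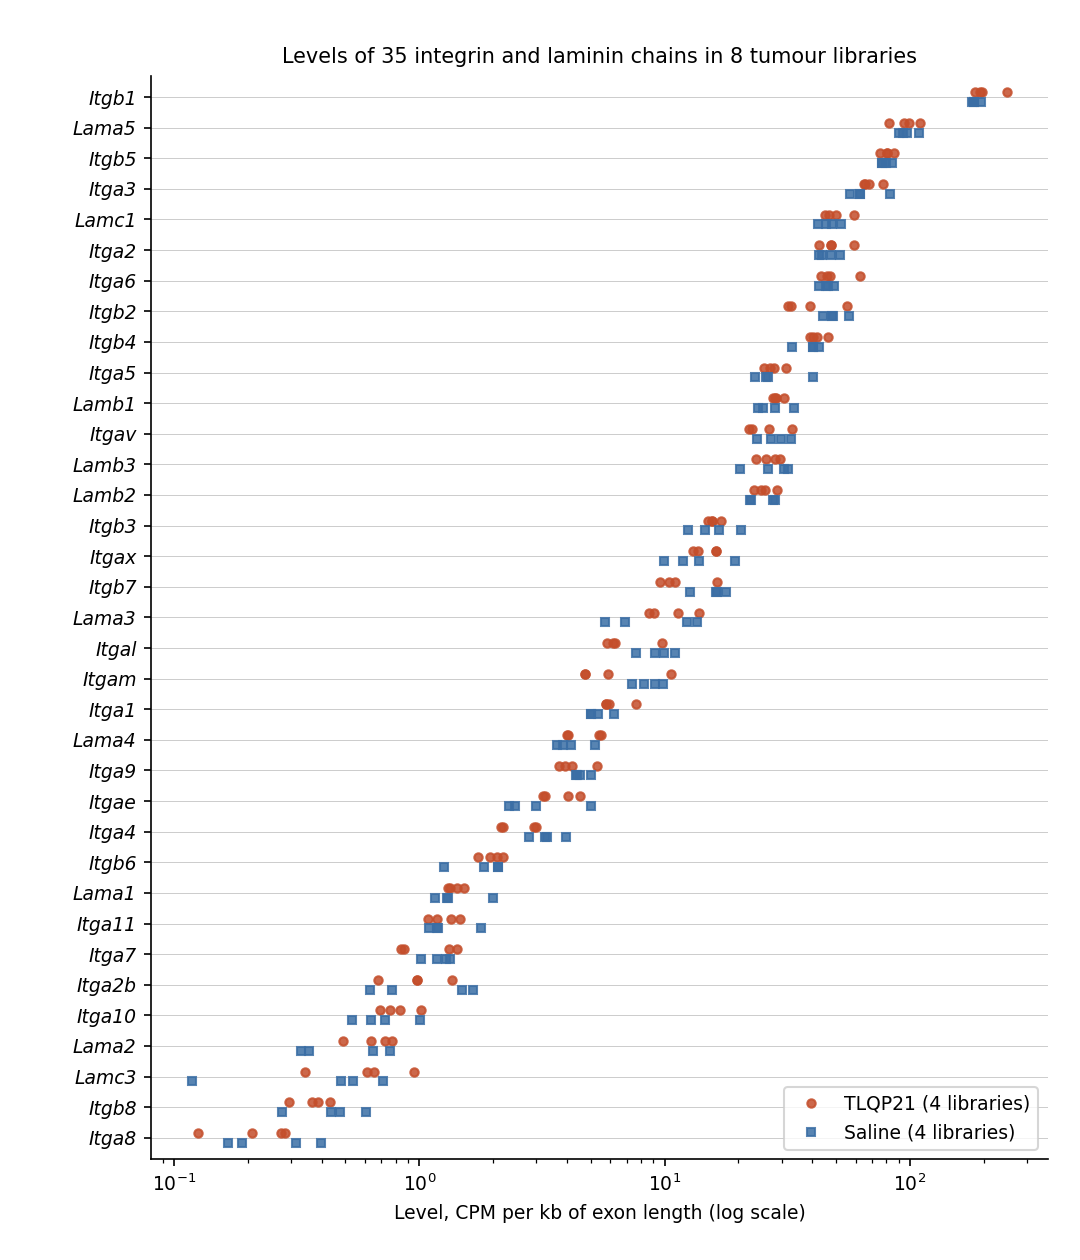
Level of each chain in CPM per kb of exon length (log axis), 1 point per library, with TLQP21 libraries as circles above the Saline squares of the same gene. Itgb1 is at the top with 179 to 248 CPM per kb and Itga8 at the bottom with 0.125 to 0.396 CPM per kb, and the points of the treatments overlap for every chain.

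By these levels the laminin alpha chains were mostly Lama5, an alpha chain of epithelial and vascular basement membranes. It made up 84.5 ± 3.56% of alpha-chain level in TLQP21 and 86.1 ± 2.65% in Saline (SD, n = 4 each). Lama3, the alpha chain of the laminin that anchors epithelial hemidesmosomes, made up 9.53 ± 2.80% in TLQP21 and 8.46 ± 3.39% in Saline. Lama4, an endothelial and mesenchymal chain, took 4.22 ± 1.04% in TLQP21 and 3.70 ± 0.404% in Saline. Lama1, a chain of the embryo, took 1.23 ± 0.0420% in TLQP21 and 1.26 ± 0.252% in Saline, and Lama2, the chain of muscle and nerve, 0.575 ± 0.0942% in TLQP21 and 0.462 ± 0.189% in Saline. The beta chains were close to evenly divided, with Lamb1 at 35.4 ± 1.96%, Lamb2 at 31.5 ± 2.48% and Lamb3 at 33.05 ± 3.31% of beta-chain level in TLQP21, and at 34.5 ± 2.78%, 31.5 ± 5.09% and 33.98 ± 5.87% in Saline. All these shares overlapped between the treatments. Of integrin beta-chain level, Itgb1 took 47.4 to 57.0% in TLQP21 and 45.4 to 49.8% in Saline.

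Between TLQP21 and Saline tumours, none of the 35 chains passed the test, and the ranges of the treatments overlapped for every chain. The chains with the smallest p were those of leukocyte integrins, and they lay lower in TLQP21. The matrix-binding integrins and the laminins had fitted log2 fold changes from -0.28 (Itgb8) to 0.47 (Lamc3), none at an unadjusted p under 0.05. In edgeR's quasi-likelihood test with Benjamini-Hochberg adjustment over 18238 genes, 0 of 35 chains were called (lowest adjusted p = 0.9999), as were 0% of all tested genes. DESeq2 also called 0 of the 35, and 4 of all genes, and limma's voom with quality weights called 0 of the 35 and 1 of all genes. Ranges without overlap, seen for 0 of the 35, were seen for 1.66% of tested genes (0.811% higher and 0.844% lower in TLQP21). At an unadjusted p under 0.05 stood 3 chains (8.57%), all lower in TLQP21, beside 3.06% of tested genes in either direction and 2.26% lower. The fold changes were above 0 for 18 chains, as for 50.6% of tested genes, and below 0 for 17, with a median of 0.02, beside a median of 0.002 over all tested genes. A difference beyond 2-fold lay outside the 95% interval for 33 of the 35 (94.3%), and for 79.6% of tested genes. The exceptions were the low chains Itga8 (-1.05 to 0.53 on the log2 scale) and Lamc3 (-0.60 to 1.54).

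**Figure D2:**
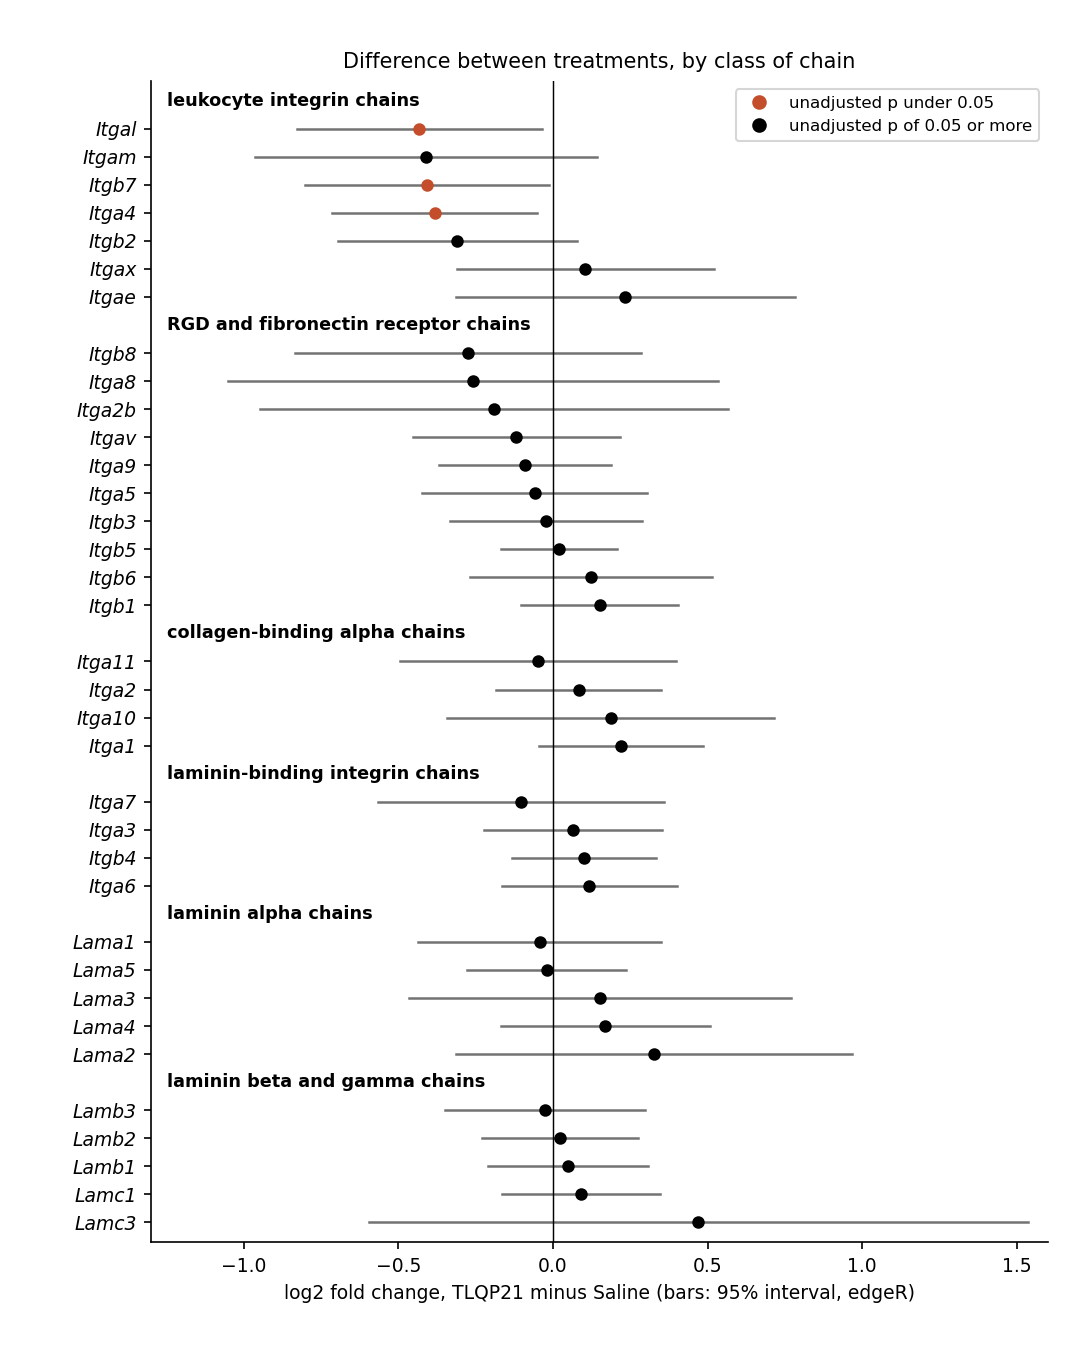
Log2 fold change of each chain, TLQP21 minus Saline, with the 95% interval from edgeR (n = 4 each), grouped by class. The intervals of Itga4, Itgal and Itgb7 lie below 0 (unadjusted p from 0.028 to 0.0435, adjusted p = 0.9999), and all others cross 0.

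The count of 3 chains at an unadjusted p under 0.05 depended on single libraries. It was 0 without TLQP21 2 and without TLQP21 3, where 1.87% and 2.14% of all tested genes had such a p. It was 1 without TLQP21 4 (3.1% of genes), Saline 2 (2.34%) or Saline 4 (2.84%), and 5 without TLQP21 1 (5.6%). It was 2 without Saline 1 (3.09%) and 4 without Saline 3 (4.08%), where the chains were Itga1, Itgae, Itgal and Itgax. It was 9 by limma's voom, where 10.6% of genes had such a p. With the kind of library (Xist or Y-linked) as a covariate it was 5, where 4% of genes had such a p, and the chains were Itga4, Itgal, Itgb2, Itgb7 and Lama2.

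The leukocyte integrins are built from Itgb2 with Itgal (the receptor LFA-1 of lymphocytes and myeloid cells), Itgam (Mac-1 of neutrophils and monocytes) or Itgax (a receptor of dendritic cells and macrophages), and from Itga4 or Itgae with Itgb7. Of these 7 chains, 5 had fold changes below 0 and 2 above, with a median of -0.38. Itgal was at 63.97, 41.4, 40.5 and 38.3 CPM in the TLQP21 libraries 1 to 4 and at 65.3, 72.7, 50.4 and 60.2 CPM in the Saline libraries 1 to 4. TLQP21 libraries 2, 3 and 4 lay below every Saline library, and TLQP21 1 lay within the Saline range. The log2 fold change was -0.43 (SE 0.18, unadjusted p = 0.035 and adjusted p = 0.9999 by edgeR).

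Its partner Itgb2 showed the same arrangement. It was at 169, 120, 99.99 and 97.2 CPM in TLQP21 and at 147, 173, 134 and 148 CPM in Saline (log2 fold change -0.31, SE 0.17, unadjusted p = 0.106 by edgeR). With the kind of library as a covariate it was -0.33 (SE 0.13, unadjusted p = 0.0323 and adjusted p = 0.995 by edgeR). Itgam was at 53.4, 29.7, 23.9 and 23.9 CPM in TLQP21 and at 41.3, 45.9, 37.0 and 49.6 CPM in Saline (-0.41, SE 0.25). TLQP21 1 was the highest of all 8 libraries for Itgam, and the other TLQP21 libraries were the lowest. Itgax did not share this arrangement: it was at 77.7, 78.01, 65.4 and 62.8 CPM in TLQP21 and at 66.1, 57.1, 92.9 and 47.8 CPM in Saline (0.10, SE 0.19).

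**Figure D3:**
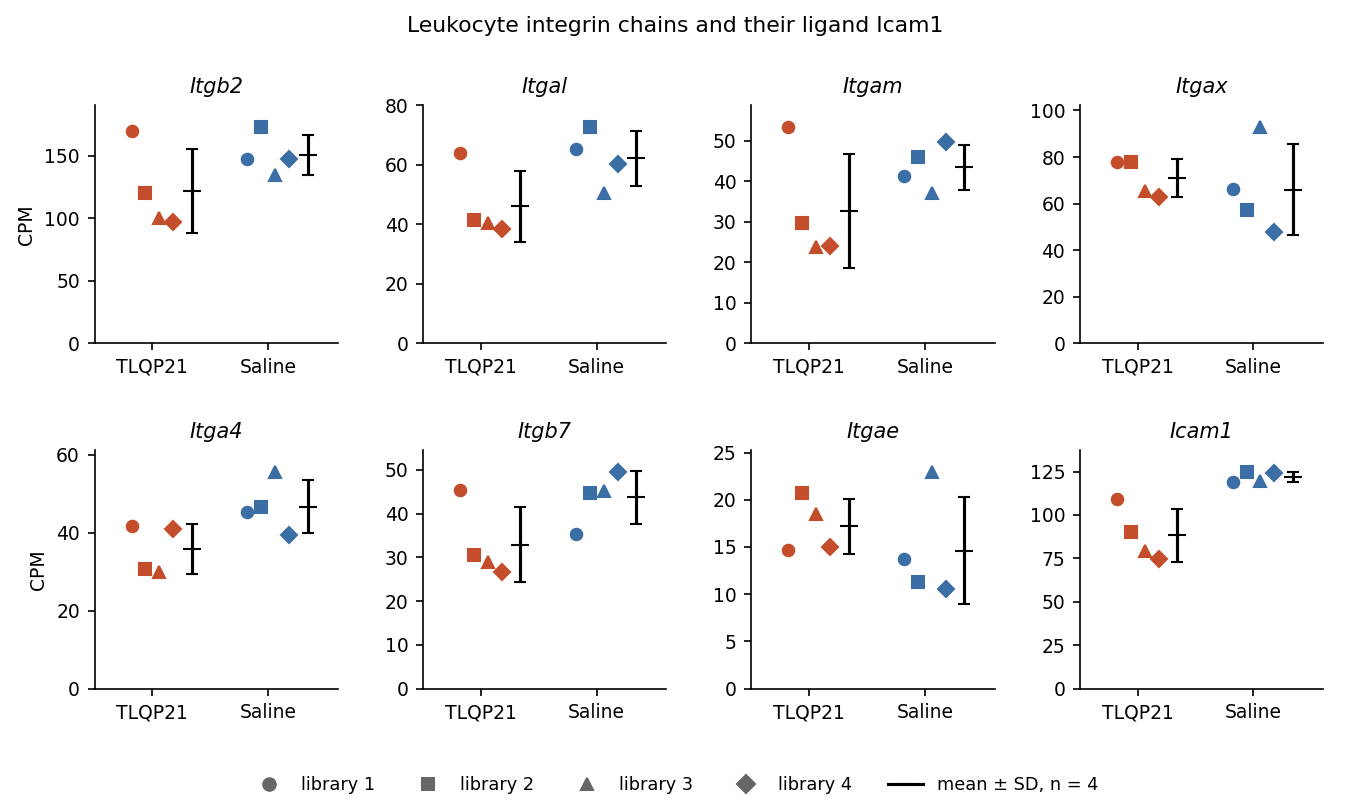
CPM of the 7 leukocyte integrin chains and of Icam1 in each library, with symbols for library number and black bars for mean ± SD (n = 4). For Itgb2, Itgal, Itgam and Itgb7 TLQP21 2, 3 and 4 lie below all Saline libraries, while TLQP21 1 lies among them (for Itgam above them), and for Icam1 the groups do not overlap (74.6 to 109 CPM in TLQP21 and 119 to 125 CPM in Saline).

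Itgb7 was at 45.4, 30.6, 29.0 and 26.6 CPM in TLQP21 and at 35.3, 44.8, 45.2 and 49.5 CPM in Saline (-0.41, SE 0.18, unadjusted p = 0.0435 by edgeR). Itga4, which pairs with Itgb7 or Itgb1 and binds VCAM1 and fibronectin, was at 41.7, 30.7, 29.95 and 41.0 CPM in TLQP21 and at 45.4, 46.5, 55.6 and 39.3 CPM in Saline (-0.38, SE 0.15, unadjusted p = 0.028). For Itga4 it was Saline 4, at 39.3 CPM, that lay within the TLQP21 range. Itgae, the CD103 chain of resident T cells and some dendritic cells, was at 14.6, 20.7, 18.5 and 14.9 CPM in TLQP21 and at 13.7, 11.3, 22.9 and 10.6 CPM in Saline (0.23, SE 0.25). Saline 3 alone had the highest Itgae and the highest Itgax. Without TLQP21 1, the ranges no longer overlapped for Itgal, Itgam, Itgb2, Itgb7 and Itga9, all lower in TLQP21, against 6.53% of all genes in that setting. Other left-out libraries gave other chains. Without Saline 3 they were Itga1 and Itgae, both higher in TLQP21 (4.96% of genes). Without Saline 4 they were Itga3 and Lama1, higher, and Itga4, lower (3.67%). Without Saline 1 it was Itgb1, higher (3.82%), and without Saline 2 Itgb8, lower (3.01%).

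Leukocyte marker genes also lay lower in TLQP21. All 10 markers, among them Ptprc, Lcp1 and Coro1a, had fold changes below 0, with a median of -0.31 and with 2 at an unadjusted p under 0.05. Their mean level was 5.72 to 6.25 log2 CPM in TLQP21 and 6.14 to 6.32 in Saline, and TLQP21 1 had the highest of the TLQP21 values. Saline 4 had the highest level of these markers of the 8 libraries and the lowest Itgax and Itgae. T cell markers were lowest in Saline 4 (2.41 log2 CPM) and at 3.01 in Saline 3, which had the highest Itgae. They were highest in TLQP21 1 (3.07), where Itgae was at 14.6 CPM. How these chains relate to either list was not tested. The summed level of the 10 leukocyte markers was 746 to 1069 CPM in TLQP21 and 974 to 1075 CPM in Saline, and none of these markers was at 0. Of the 10 neutrophil markers, among them S100a8 and S100a9, 10 had fold changes below 0, with a median of -0.94. At an unadjusted p under 0.05 by edgeR stood 7 of them, beside 2.26% of tested genes lower in TLQP21. The level of the neutrophil markers ran from 3.62 to 4.73 log2 CPM in TLQP21. It ran from 4.51 to 4.79 in Saline 1 to 3 but was 6.00 in Saline 4. TLQP21 1, at 4.73, lay within the range of Saline 1 to 3. Macrophage markers ran from 7.37 to 7.98 in TLQP21 and from 7.74 to 7.98 in Saline. T cell markers ran from 2.44 to 3.07 in TLQP21 and from 2.41 to 3.01 in Saline. Fewer leukocytes and less integrin RNA per leukocyte cannot be told apart in whole tumours, and the part of these markers in the differences was not tested.

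Across the 8 libraries, the chains that build LFA-1 and Mac-1 varied together. Itgb2 correlated with Itgal (Pearson's r = 0.95, exact permutation p = 0.000198, adjusted p = 0.00238; Spearman's rho = 0.93, exact permutation p = 0.00223) and with Itgam (r = 0.96, exact permutation p = 0.000546, adjusted p = 0.00327; rho = 0.90, exact permutation p = 0.00456). Without the 2 libraries farthest from the median of Itgb2, TLQP21 3 and 4, r was 0.93 for Itgal and 0.88 for Itgam. Around the means of their own treatment r was 0.94 and 0.95. Itgb2 and Itgal were each lower in the libraries with Y-linked transcripts (log2 differences of -0.37 for both, unadjusted p = 0.0208 and 0.0239, adjusted p = 0.279 and 0.291 by edgeR). Around the means of the kinds of library, r of Itgb2 was 0.94 with Itgal and 0.97 with Itgam (exact permutation p = 0.00694 and adjusted p = 0.0417 for both, within kinds). With Itgax, r was -0.09 (rho = -0.21). The chains of a pair share the library, its depth and its level of leukocyte markers, and the values describe RNA, not pairing of the proteins. Adjustment covered 12 pairs of partner chains. Among 9 others were Itgb7 with Itgae (r = -0.39) and with Itga4 (0.58), Itgb4 with Itga6 (0.13), Itgb3 with Itga2b (0.06), Itgb6 with Itgav (-0.37) and Lamb1 with Lamc1 (0.63). None of these 6 passed (adjusted exact permutation p from 0.234 to 0.891), nor did Lama5 with Lamb2 or Lama4 with Lamb1 (r = 0.55 and 0.69).

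**Figure D4:**
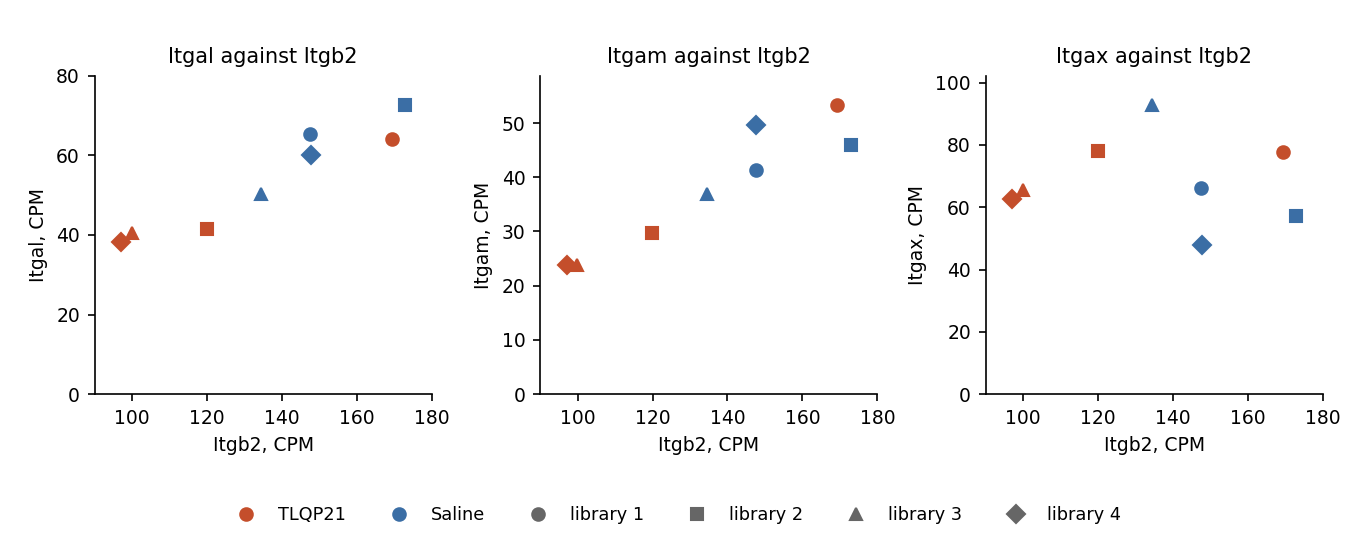
CPM of Itgal, Itgam and Itgax against CPM of Itgb2, 1 point per library, coloured by treatment, with symbols for library number. Itgal and Itgam lie along a rising line (r = 0.95 and 0.96 on log2 CPM), and Itgax does not (r = -0.09).

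Itgam and Itgax are neighbours on chromosome 7 of GRCm38, Itgam from 128062640 to 128118491 and Itgax from 128129547 to 128150657, both on the plus strand. Their promoters are shown because these neighbours pair with the same beta chain and yet did not vary alike. The sequences are RefSeq's for GRCm38.p6, from 250 bases before to 50 after the start, read 5′ to 3′ on the plus strand. Capitals mark, for Itgam, each GAGGAA on either strand, so also TTCCTC, and, for Itgax, each TGANTCA (the pattern of AP-1). GAGGAA is a longer form of the GGAA core read by ETS factors such as PU.1 of myeloid cells.
Itgam, chr7:128062390-128062689: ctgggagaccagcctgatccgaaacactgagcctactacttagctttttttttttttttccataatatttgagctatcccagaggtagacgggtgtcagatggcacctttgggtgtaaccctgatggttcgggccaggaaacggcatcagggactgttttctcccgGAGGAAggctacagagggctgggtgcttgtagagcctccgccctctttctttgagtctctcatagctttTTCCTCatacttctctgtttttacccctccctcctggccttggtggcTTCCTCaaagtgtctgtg
Itgax, chr7:128129300-128129599: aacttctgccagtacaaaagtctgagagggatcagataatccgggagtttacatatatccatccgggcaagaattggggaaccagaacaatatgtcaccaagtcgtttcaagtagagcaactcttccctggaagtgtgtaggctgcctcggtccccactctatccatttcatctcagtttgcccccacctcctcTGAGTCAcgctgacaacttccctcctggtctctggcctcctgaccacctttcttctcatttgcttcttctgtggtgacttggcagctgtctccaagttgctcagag
GAGGAA was found 3 times for Itgam and 0 times for Itgax. The shorter GGAA, which the Itgax sequence also holds, was not counted. TGANTCA was found 0 times for Itgam and 1 time for Itgax. Of 32544 RefSeq promoters of this length, 28.1% hold GAGGAA on either strand and 7.79% hold TGANTCA. Of 23 chains with a listed promoter, 12 hold GAGGAA and 2 hold TGANTCA. Some listed starts lie far from the annotated gene start. The distance is 105002 bases for Itga9, counted with TGANTCA, and 94295 and 2816 bases for Lamb3 and Lama2, counted with GAGGAA. A match describes these letters only.

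Of the collagen-binding alpha chains, Itga1, a collagen receptor of smooth muscle, fibroblasts and effector T cells, had the smallest p on the higher side. It was at 107, 111, 108 and 143 CPM in TLQP21 and at 99.7, 93.5, 116 and 93.05 CPM in Saline (log2 fold change 0.22, SE 0.12, unadjusted p = 0.0929 by edgeR). Saline 3, at 116 CPM, lay above 3 of the TLQP21 libraries. Smooth muscle and pericyte markers had fold changes above 0 for 10 of 10. Their level was 4.54, 4.58, 4.50 and 4.37 log2 CPM in TLQP21 1 to 4. In Saline 1 to 4 it was 4.20, 4.11, 4.28 and 4.49. TLQP21 4 thus had the highest Itga1 and the lowest marker level of its group, and Saline 4 the lowest Itga1 and the highest Saline level. The part of these markers in the Itga1 values was not tested. Itga2, the epithelial collagen receptor, was at 351 ± 50.02 CPM in TLQP21 and 331 ± 30.1 CPM in Saline (0.08, SE 0.12). Itga10, a chain of cartilage, and Itga11, a chain of fibroblasts, were at 4.28 ± 0.725 and 6.51 ± 0.868 CPM in TLQP21 and at 3.75 ± 1.05 and 6.73 ± 1.63 CPM in Saline.

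Itgb1 was at 750, 786, 803 and 1014 CPM in TLQP21 and at 799, 748, 742 and 732 CPM in Saline (0.15, SE 0.11, unadjusted p = 0.215 by edgeR). TLQP21 4 was the highest, and TLQP21 1 and TLQP21 2 lay within the Saline range. The chains of the hemidesmosomal laminin receptor, Itga6 and Itgb4, were at 449 ± 78.8 and 294 ± 22.7 CPM in TLQP21 and at 414 ± 24.9 and 274 ± 28.8 CPM in Saline (0.12, SE 0.13, and 0.10, SE 0.10). Itga3, which binds laminin with Itgb1, was at 395 ± 33.1 CPM in TLQP21 and 377 ± 64.6 CPM in Saline. Itga7, the laminin receptor chain of muscle, was at 9.03 ± 2.47 CPM in TLQP21 and 9.71 ± 1.12 CPM in Saline. All 4 of these ranges overlapped, and no fold change of this class passed 0.12 in size.

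Of the 10 chains of fibronectin and other matrix and platelet receptors, 3 had fold changes above 0 and 7 below, with a median of -0.08. Itgb5 was the steadiest of all 35 chains, at 268, 287, 286 and 305 CPM in TLQP21 and at 272, 274, 283 and 301 CPM in Saline (coefficient of variation 4.71% over the 8 libraries, log2 fold change 0.02, 95% interval -0.17 to 0.21). Its partner Itgav was at 280 ± 54.4 CPM in TLQP21 and 305 ± 40.5 CPM in Saline. The fibronectin receptor chain Itga5 was at 137 ± 11.8 CPM in TLQP21 and 143 ± 37.6 CPM in Saline, and the fold change of -0.06 became 0.135 without Saline 4, which had 199 CPM. Itgb3, of platelets and osteoclasts, was at 93.3 ± 4.93 CPM in TLQP21 and 94.9 ± 20.2 CPM in Saline. Itgb6 and Itgb8, whose receptors release active TGF-beta, were at 14.1 ± 1.41 and 4.09 ± 0.638 CPM in TLQP21 and at 12.9 ± 2.80 and 4.96 ± 1.501 CPM in Saline. Itga9, which binds tenascin and osteopontin, was at 32.9 ± 5.53 CPM in TLQP21 and 35.1 ± 2.27 CPM in Saline. Itga8 was at 1.64 ± 0.537 CPM in TLQP21 and 1.96 ± 0.795 CPM in Saline, and Itga2b, the platelet fibrinogen receptor chain, at 5.44 ± 1.51 CPM in TLQP21 and 6.21 ± 2.80 CPM in Saline.

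The laminin chains lay slightly above 0 in 7 of 10 cases, with a median log2 fold change of 0.07 and no chain at an unadjusted p under 0.05 without a covariate. Lama2 was at 8.005, 10.3, 11.9 and 12.7 CPM in TLQP21 and at 5.82, 5.36, 10.6 and 12.4 CPM in Saline (0.33, SE 0.29, unadjusted p = 0.281 by edgeR). With the kind of library as a covariate the fold change was 0.40 (SE 0.17, unadjusted p = 0.0475 and adjusted p = 0.995 by edgeR). Libraries 3 and 4 were the highest of each group, and the treatments overlapped. Lama4 was at 66.6, 48.8, 48.1 and 65.1 CPM in TLQP21 and at 50.03, 43.9, 46.5 and 62.7 CPM in Saline (0.17, SE 0.15, unadjusted p = 0.287). Endothelial markers, a source of Lama4, were highest in Saline 4 (5.32 log2 CPM) and TLQP21 1 (5.16), against 4.57 to 4.80 in the others. TLQP21 4, with more Lama4 than Saline 4, had an endothelial level of 4.67. The part of these markers in the Lama4 values was not tested. Lama5 was at 1098 ± 129 CPM in TLQP21 and 1114 ± 90.9 CPM in Saline, a fold change of -0.02 with a 95% interval from -0.28 to 0.24. Lamb1 (285 ± 13.02 CPM in TLQP21 and 275 ± 42.99 in Saline), Lamb2 (155 ± 14.02 in TLQP21 and 153 ± 19.9 in Saline) and the gamma chain Lamc1 (415 ± 51.6 in TLQP21 and 389 ± 35.8 in Saline) differed by 0.05, 0.02 and 0.09 on the log2 scale. Lama1 was at 13.5 ± 0.943 CPM in TLQP21 and 13.96 ± 3.61 CPM in Saline. Lamc3 was at 5.78, 3.97, 2.09 and 3.74 CPM in TLQP21 and at 2.93, 3.26, 0.721 and 4.35 CPM in Saline, the widest spread of the 35.

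Lama3 and Lamb3, 2 chains of the hemidesmosomal laminin, divided the libraries by kind rather than by treatment. Lama3 was at 92.5 and 97.3 CPM in the TLQP21 libraries with Y-linked transcripts and 61.4 and 73.8 CPM in the Saline ones, and at 148 and 121 CPM in the TLQP21 libraries with Xist and 133 and 146 CPM in the Saline ones. Lamb3 was at 171, 155, 134 and 174 CPM in the libraries with Y-linked transcripts (TLQP21 3 and 4, Saline 3 and 4) and at 195, 186, 203 and 210 CPM in those with Xist (TLQP21 1 and 2, Saline 1 and 2). Every library with Y-linked transcripts lay below every library with Xist for both genes. In a fit with treatment and kind of library, the log2 difference was -0.78 for Lama3 (SE 0.13, unadjusted p = 0.000247, adjusted p = 0.0542 by edgeR) and -0.32 for Lamb3 (SE 0.10, adjusted p = 0.23). Lama3 with Lamb3 was the remaining pair of the 12 partner pairs. Over all 8 libraries its exact permutation p, two-sided and adjusted, was 0.0143, but the kinds separate both genes and hold 4 libraries each, so no pooled correlation is given. Around the means of the kinds the pair did not pass (adjusted exact permutation p = 0.615 within kinds).

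Lama2, Lamb2 and Lamc1 lay the other way. Lama2 was at 11.9 ± 0.931 CPM in the libraries with Y-linked transcripts and 7.38 ± 2.28 CPM in those with Xist (log2 difference 0.73, SE 0.17, adjusted p = 0.149 by edgeR). Lamb2 was at 168 ± 7.67 CPM with Y-linked transcripts and 141 ± 6.73 CPM with Xist (0.26), and Lamc1 at 433 ± 39.1 CPM with Y-linked transcripts and 371 ± 16.2 CPM with Xist (0.22). Itga8 also did not overlap, at 2.33 ± 0.411 CPM with Y-linked transcripts and 1.27 ± 0.260 CPM with Xist. The 6 chains without overlap between kinds (17.1% of 35, 5 of them laminins) stand beside 9.35% of all tested genes. At an adjusted p under 0.05, 0 of the 35 chains and 0.373% of tested genes were called between kinds by edgeR. At an unadjusted p under 0.05 stood 10 chains, beside 13.6% of tested genes. DESeq2 called Lama3, Lama2 and Itga2b, but it called 605 genes in all, where edgeR called 68 of 18238. Without TLQP21 2, edgeR called Lama3 (adjusted p = 0.0395), among 58 of 18510 tested genes.

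**Figure D5:**
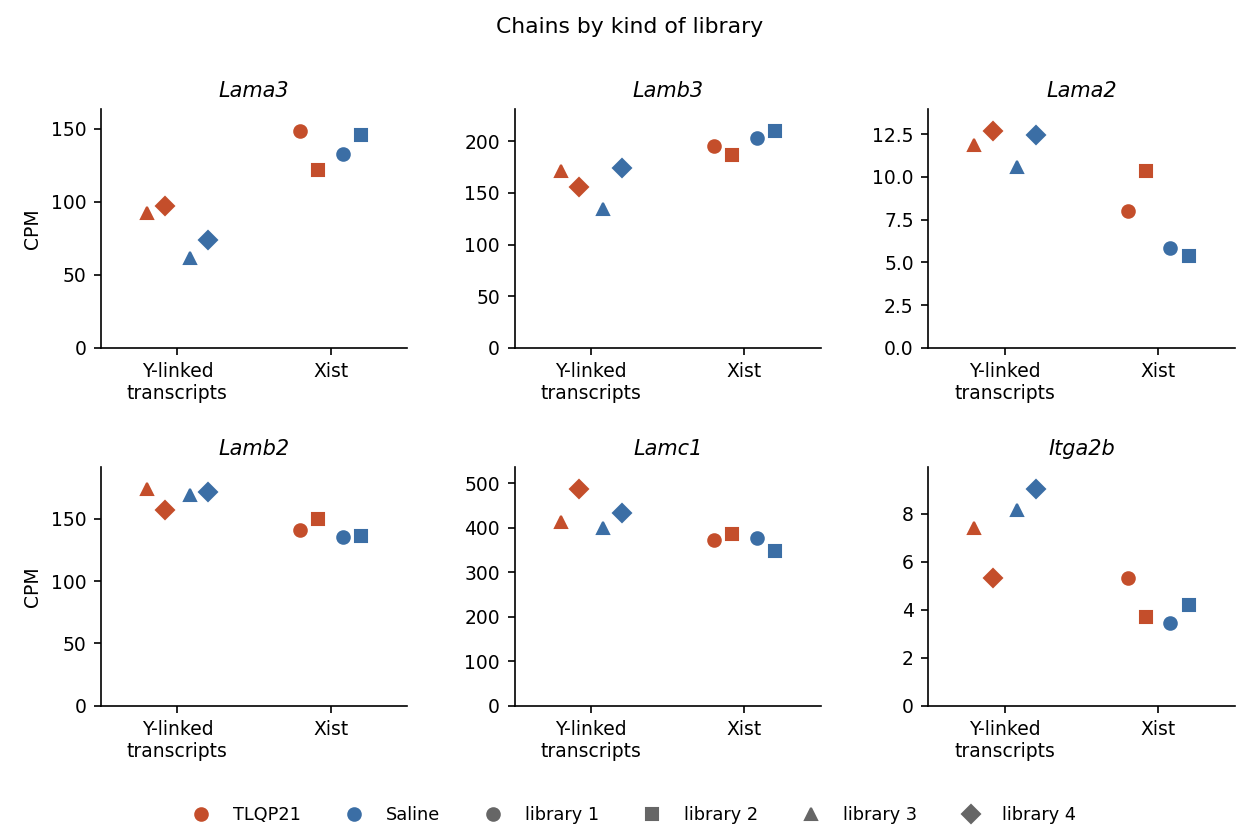
CPM of 5 laminin chains and Itga2b in libraries with Y-linked transcripts (left) and with Xist (right), coloured by treatment, with symbols for library number. Lama3 and Lamb3 lie lower in all 4 libraries with Y-linked transcripts, and Lama2, Lamb2 and Lamc1 lie higher in all 4.

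Epithelial markers lay at 7.86 to 7.92 log2 CPM in the libraries with Y-linked transcripts and at 7.98 to 8.05 in those with Xist. Platelet and megakaryocyte markers, of which 8 of 10 were tested, had a low mean level. It lay at 0.64 to 1.38 log2 CPM with Y-linked transcripts and at -0.60 to 0.11 with Xist. Their summed level did not separate the kinds, at 38.0 to 72.8 CPM with Y-linked transcripts and 39.5 to 49.4 CPM with Xist. Itga2b was at 7.48 ± 1.59 CPM with Y-linked transcripts and 4.17 ± 0.838 CPM with Xist, and its ranges overlapped (5.31 to 9.04 and 3.44 to 5.34 CPM). The part of these markers in the differences was not tested, and the libraries with Y-linked transcripts are numbers 3 and 4 of each group, so that the kind and the library number cannot be told apart. The effect of TLQP21 was not shown to differ between the kinds for any chain. The interaction reached an unadjusted p under 0.05 by edgeR for 3 of 35 chains (Itga7, Lama3 and Itgb7) and 4.8% of tested genes. An adjusted p under 0.05 was reached for none of the 35 (lowest 0.842 by edgeR) and 0% of genes. For Itgal the log2 ratio of treatments was -0.48 within the Y-linked libraries and -0.42 within the Xist libraries, for Itga4 -0.41 and -0.36, and for Itgb7 -0.77 and -0.09. For Itgb2 these were -0.52 and -0.16, and for Itgam -0.84 and -0.13. For Lama3 they were 0.49 and -0.05, and for Itga7 -0.54 and 0.27.

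Genes that work with these chains were read from lists. Of 28 adaptor and focal adhesion genes, 10 had fold changes above 0 and 18 below (median -0.06), with 0 at an unadjusted p under 0.05. The smallest p belonged to Fermt3, the kindlin of blood cells that activates leukocyte integrins, at 51.3, 37.8, 40.05 and 26.2 CPM in TLQP21 and at 44.9, 50.004, 50.7 and 57.5 CPM in Saline (log2 fold change -0.39, SE 0.18). Next was the focal adhesion adaptor Lims2 at 3.56 ± 1.13 CPM in TLQP21 and 5.26 ± 1.25 CPM in Saline (-0.56). TLQP21 1 had the highest Fermt3 of its group, as it did for Itgb2.

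Of 9 cell-surface ligands of leukocyte integrins, 8 were tested, 4 above and 4 below 0. Icam1, the ligand of LFA-1 and Mac-1, was at 109, 90.2, 79.2 and 74.6 CPM in TLQP21 and at 118.99, 125, 119.7 and 124 CPM in Saline. The treatments did not overlap (log2 fold change -0.47, SE 0.12, unadjusted p = 0.00275, adjusted p = 0.9999 by edgeR). Jam2, a junctional ligand, was at 15.5 ± 2.19 CPM in TLQP21 and 13.3 ± 2.55 CPM in Saline. Of 18 other matrix ligands, 11 lay above and 7 below 0 (median 0.04). Vitronectin (Vtn) was at 7.76 ± 3.19 CPM in TLQP21 and 37.7 ± 57.4 CPM in Saline, with 123 CPM in Saline 2, the library with liver transcripts, and 4.80 to 16.4 CPM in the other Saline libraries. Nidogen (Nid1), which links laminin to collagen, was at 280 ± 32.6 CPM in TLQP21 and 246 ± 31.3 CPM in Saline (0.19). Of 11 other laminin and matrix receptors, 3 lay above and 8 below 0 (median -0.08), among them the proteoglycan Sdc4 at 343 ± 49.5 CPM in TLQP21 and 418 ± 38.9 CPM in Saline (-0.29, unadjusted p = 0.0434) and the hyaluronan receptor Cd44 at 937 ± 93.7 CPM in TLQP21 and 855 ± 72.1 CPM in Saline. No gene of these 4 lists passed adjustment over all genes.

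The counts of some chains are uncertain because exons are shared with other genes and the strand setting of the counting is not known. On the opposite strand 8 chains share exon bases with another gene, among them Itga4 with Cerkl over 1124 bases. Cerkl had 47 to 96 reads per library, beside at least 902 for Itga4. On the same strand 3 chains do, Itgam over 3450 bases with the predicted gene Gm49368, which had 0 to 6 reads, Itga10 over 1739 bases with Gm42957 (0 to 4 reads) and Itga1 over 685 bases with Gm49395 (10 to 25 reads). For Itgam these are 3450 of 5024 exon bases. How reads in shared bases were counted was not examined, and few reads of a neighbour do not show that none of the chain were lost. All 35 genes have the same position in the GENCODE M21 annotation of GRCm38 as in the deposited table. On that build Itgb2 (ENSMUSG00000000290) lies on chromosome 10 from 77530252 to 77565708, Itgal (ENSMUSG00000030830) on chromosome 7 from 127296260 to 127335138 and Lamb3 (ENSMUSG00000026639) on chromosome 1 from 193207699 to 193343878, all protein-coding. Itga4 (ENSMUSG00000027009) lies on chromosome 2 from 79255426 to 79333123, and Itgb7 (ENSMUSG00000001281) on chromosome 15 from 102215995 to 102231944, also protein-coding.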

How the data were processed

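Per the labels' protocols, total RNA of whole tumours was extracted, made into NEBNext Ultra libraries and sequenced in paired ends on an Illumina NovaSeq. The deposited table holds read counts per gene, not normalised. The submitters' processing notes name the aligner HISAT2 (2.0.5), the counter featureCounts (1.5.0-p3), DESeq2 (1.32.0) and the build GRCm38 (mm10). The strand setting and annotation release are not given in the sources used here. The table also gives gene lengths, which for all 35 chains equal the merged exons of GENCODE M21.

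Groups and library numbers came from the sample titles. The test was edgeR's (4.0.16, in R 4.3.3): default low-count filter by group, TMM scaling, a quasi-likelihood fit of treatment with no covariate, Benjamini-Hochberg adjustment over 18238 genes, threshold 0.05. Log2 fold changes are TLQP21 minus Saline. Levels of lists are mean log2 CPM of tested genes with a prior count of 2. The test was checked on simulated counts. DESeq2 1.42.0, limma 3.58.1 and other scalings, filters, covariates and left-out libraries were alternatives. The fit by kind of library, its alternatives and the correlations around the means of the kinds were added after seeing the data. P-values measure the spread between these libraries, which may be partly technical. No 2 libraries agreed within counting error (chi-square per degree of freedom at least 19.03). The members and lists were chosen with earlier results of these data known. Named in full were the 4 chains with the smallest p in each direction and the 2 such genes of each partner list. Chains named for other reasons, such as the split by kind, were chosen after their values were seen. Protein features, planned at first, were not analysed here.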

Additional observations from a re-analysis of the deposited data

Results flagged for a closer look

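In 70 groups of 4 values (35 chains in each treatment), 3 held a library that stood apart from its group by Dixon's test at the 95% level, where chance gives about 1 in 20 groups, or 3.5. Itgal was at 63.97 CPM in TLQP21 1, against 38.3 to 41.4 CPM in the other TLQP21 libraries. Itga1 was at 143 CPM in TLQP21 4, against 107 to 111 CPM in the other TLQP21 libraries. Itga11 was at 9.15 CPM in Saline 4, against 5.63 to 6.09 CPM in the other Saline libraries.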

How the results depend on the processing

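No chain was called between TLQP21 and Saline under any of the 17 alternatives run (other scalings, filter, tools, covariates, thinning and left-out libraries). Of all genes, DESeq2 called 4 lower and limma's voom 1. The labels give no pairing, and the deviations of libraries with equal numbers correlated at 0.11, 0.19, 0.27 and -0.05, so not every pair exceeded 0.1 and the numbers were not taken as pairs. Of the 8 libraries, 1 correlated best with its own number. The replicate block left 0 chains called and 1, Itgal, at an unadjusted p under 0.05. Fold changes of uncalled chains changed sign in several settings, and the cause was not tested. With library totals only they were 0.00835 for Itgb3, 0.0071 for Lama5 and 0.000205 for Lamb3. By limma's voom they were -0.0278 for Itga2, 0.092 for Itga7, 0.11 for Itga11, 0.12 for Lama1 and 0.0155 for Lama5. Without Saline 2 and TLQP21 4 they were -0.0114 for Itga2, -0.0541 for Itga6, 0.0396 for Itga7, -0.0325 for Itgb5, -0.0355 for Lamb1, -0.0383 for Lamb2, 0.11 for Lamb3 and -0.0521 for Lamc1. In that setting 2 chains did not overlap, beside 8.05% of genes, and the medians were 0.0312 for collagen-binding chains and 0.0339 for laminin alpha chains.

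Leaving out 1 library at a time, the number of chains without overlap ranged from 0 to 5 (5 without TLQP21 1), beside 2.62% to 6.53% of genes. Medians ranged from -0.094 to 0.0394 for integrin chains, from -0.0303 to 0.24 for laminin alpha chains and from 0.0155 to 0.14 for laminin-binding chains. Fold changes ranged from -0.0212 to 0.15 for Itga2, -0.39 to 0.0394 for Itga2b, -0.15 to 0.14 for Itga5, -0.0163 to 0.18 for Itga6, -0.24 to 0.00962 for Itga7, -0.12 to 0.13 for Itga11, -0.0256 to 0.32 for Itgax, -0.13 to 0.11 for Itgb3, -0.0163 to 0.0508 for Itgb5 and -0.0216 to 0.20 for Itgb6. They ranged from -0.13 to 0.15 for Lama1, -0.0303 to 0.36 for Lama3, -0.0877 to 0.0482 for Lama5, -0.0148 to 0.15 for Lamb1, -0.0344 to 0.0769 for Lamb2, -0.14 to 0.0551 for Lamb3 and -7.624e-05 to 0.14 for Lamc1. Between kinds of library, DESeq2 called 3 chains (Lama3 at -0.78 and Lama2 at 0.72 among them), beside 605 genes in all. With 1 library left out, edgeR called from 0 to 1 chains, beside 23 to 77 genes in all. Itga8 and Lamc3 had the fewest reads and the widest intervals of the fold change, and the part of depth was not tested.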
